A study of Homo sapiens with 2 samples.

Results

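MHC class II molecules carry peptides to the surface of antigen-presenting cells, and 9 of the genes behind them are described here in HL-60, an established human promyelocytic leukaemia line. The genes are CIITA, CD74, HLA-DRA, HLA-DMA, HLA-DMB, HLA-DPA1, HLA-DPB1, HLA-DOA and HLA-DOB, chosen by name together with all their probe sets on the array. They have 17 probe sets among 32321. Of these, 13 list 1 gene symbol and cover 7 of the 9 genes, which belong to the 18404 genes with a probe set of their own. The other four list several symbols: CD74 has 1 probe set, shared with ROS1, and HLA-DRA has 3, all shared with HLA-DQA1. The study has 1 group, WT HL-60 cells, hybridised as replicates 1 and 2 to Affymetrix Human Gene 1.0 ST arrays, for which the labels name no treatment and no second genotype. No group comparison exists, so values are given per array, or as mean ± SD (n = 2), with no p-value. Whether the cultures were separate is not stated, so the spread between arrays could be a technical one, and the number of arrays limits the precision.

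Class II molecules are pairs of an alpha and a beta chain that bind peptides in endosomes and show them to CD4 T cells. HLA-DRA, HLA-DPA1, HLA-DMA and HLA-DOA encode alpha chains, and HLA-DPB1, HLA-DMB and HLA-DOB beta chains. CD74, the invariant chain, blocks the groove of new class II molecules and guides them to endosomes. HLA-DM removes the remnant of CD74 from the groove, and HLA-DO restrains HLA-DM. CIITA is the coactivator that most of these genes need, and it does not bind DNA itself but docks on factors already bound at class II promoters. B cells, dendritic cells and macrophages are the usual sites of expression, and interferon gamma can induce CIITA elsewhere. Promyelocytes normally carry little HLA-DR on their surface.

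Signals are log2 values made by the authors with RMA, and they were read against gene families taken here as background. That these families are silent in HL-60 was not tested. The olfactory threshold is the 95th percentile of 360 olfactory receptor genes, 2.98 on replicate 1 and 2.88 on replicate 2. A second, higher threshold is the same percentile of 116 keratin-associated protein, bitter taste receptor and beta-defensin genes, 5.40 and 5.22. Above background means above the olfactory threshold on both arrays, which held for 55.8% of the named genes, and 17.1% exceeded the second threshold on both. Over all named genes, the SD of replicate 2 minus replicate 1 was 0.39. Of 7 listed promyelocyte markers 6 were measured, and all 6 were above background, beside 55.8% of all named genes. Among them were CTSG (8.99 on replicate 1, 7.24 on replicate 2), MPO (8.21 and 7.48) and AZU1 (3.01 and 3.19), which passed barely. With the threshold at the 99th percentile, 5 of the 6 passed, all but AZU1. The share of all named genes above that percentile was not counted. Of the 6 markers, 3 exceeded the second threshold on both arrays, beside 17.1% of all named genes. The identity of the cells was not tested. A signal depends on its probes, and an order of signals across genes is not an order of transcript amounts.

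Most class II genes gave no signal above background in HL-60, and HLA-DMA was the exception. Of the 7 members with a probe set of their own, HLA-DMA alone was above background on both arrays, beside 55.8% of all named genes, and 0 were above the second threshold, beside 17.1%. The median of the 7 genes was 2.07, against 3.33 over all named genes and a median of 2.03 (replicate 1) and 1.90 (replicate 2) over the olfactory receptors. By probe set, 3 of 17 were above background on both arrays, beside 55.8% of all annotated probe sets: both of HLA-DMA and 1 of HLA-DOA. Above the second threshold on both arrays were 0 of 17, beside 17.7%. In bulk RNA, a low level in every cell and a higher level in few cells cannot be told apart.

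**Figure D1:**
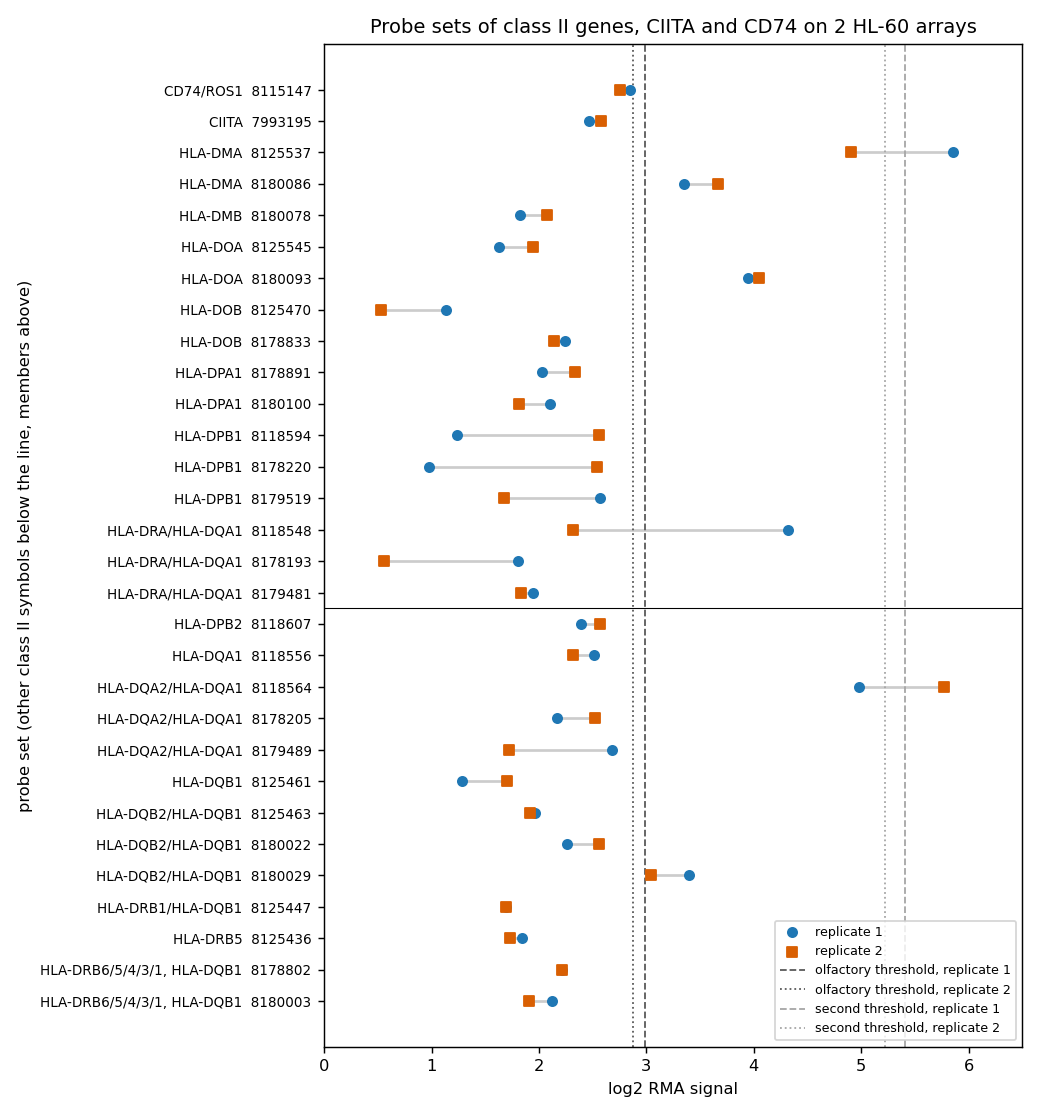
Log2 RMA signal (x axis) of each probe set that lists a class II gene, CIITA or CD74 (y axis, with its number on the array); circles are replicate 1, squares replicate 2, and vertical lines the thresholds of each array. The probe sets of HLA-DMA, one of HLA-DOA and 2 shared by HLA-DQ genes lie right of the olfactory lines on both arrays, while the rest crowd below 3 except HLA-DRA/HLA-DQA1 on replicate 1.

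HLA-DMA, the alpha chain of the peptide editor, averaged 4.601 on replicate 1 and 4.284 on replicate 2 over 2 probe sets, 1.62 and 1.41 above the olfactory threshold. Its probe set 8125537 read 5.86 and 4.91, and probe set 8180086 read 3.35 and 3.66. Both were above background, and the brighter one passed the second threshold on replicate 1 only. HLA-DMB, the partner chain, has 1 probe set, which read 1.83 and 2.08. That is below background on both arrays and near the median of the olfactory receptors, at their percentiles 34.2 and 62.5. The chains of HLA-DM thus stood on opposite sides of the threshold on both arrays, with no overlap between their probe sets.

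The HLA-DO genes were divided by probe set. For HLA-DOA, probe set 8180093 read 3.94 and 4.05 on replicates 1 and 2, while probe set 8125545 read 1.62 and 1.95. Their mean, 2.783 and 2.997, was above the threshold on replicate 2 only. The beta chain gene HLA-DOB read 1.13 and 0.53 on probe set 8125470 and 2.24 and 2.14 on probe set 8178833, all below background. On replicate 2, probe set 8125470 lay below every olfactory receptor gene.

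Class II promoters share a compact array of sequence elements, the X1, X2 and Y boxes, bound by RFX, CREB and NF-Y, on which CIITA docks. The stretches before the starts of the HLA-DM and HLA-DO genes are shown because these genes encode the accessory pairs of the pathway and HLA-DMA is the member above background. They are RefSeq sequences (GRCh38.p14), all on the minus strand, read 5′ to 3′ towards the start. Capitals mark GATTGG or its reverse complement CCAATC (the core of the Y box, which contains the CCAAT box), GCAAC (a core of X1) and CTGATGATG, an element chosen after the promoters had been read. The HLA-DMA stretch is chr6:32953144-32953243, that of HLA-DMB chr6:32941029-32941116, that of HLA-DOA chr6:33009626-33009725 and that of HLA-DOB chr6:32817068-32817167.
HLA-DMA: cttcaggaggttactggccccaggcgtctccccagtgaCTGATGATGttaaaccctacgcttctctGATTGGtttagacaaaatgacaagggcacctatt
HLA-DMB: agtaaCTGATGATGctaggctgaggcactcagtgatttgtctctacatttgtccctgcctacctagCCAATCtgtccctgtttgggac
HLA-DOA: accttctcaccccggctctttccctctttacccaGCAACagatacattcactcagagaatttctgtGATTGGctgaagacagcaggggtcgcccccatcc
HLA-DOB: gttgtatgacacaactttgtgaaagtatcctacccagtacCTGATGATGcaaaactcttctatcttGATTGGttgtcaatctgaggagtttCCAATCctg

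In the 250 bases before the start, GATTGG on either strand was found in 5 of 8 promoter entries of the members and in 14.1% of all 35116 promoters. The entries with it were those of HLA-DMA, HLA-DMB, HLA-DOA, HLA-DOB and HLA-DPB1. CCAAT was found in the same entries and in that of CD74, 6 in all, against 32% of all promoters. The HLA-DPA1 gene has 2 entries and neither holds these letters. CTGATGATG was found in HLA-DMA, HLA-DMB and HLA-DOB and in 0.222% of all promoters, but the letters were taken from these sequences, so this is no independent count. GCAAC was found in 3 of 8 entries (28.2% of all promoters) and TGACG, a core of X2, in 4 of 8 (21.2%). HLA-DOA alone among the members had GATTGG with GCAAC starting 20 to 40 bases upstream on the same strand, as 0.222% of all promoters did. Outside the members, 3 of 6 promoter entries of other class II genes had this pair too. Of those 6 entries, 5 had GATTGG and 1 had CTGATGATG. HLA-DMA, the member with signal, and HLA-DOB, the member with the lowest mean, both had CTGATGATG followed by GATTGG on the same strand. The promoters of CIITA and HLA-DRA were not analysed here. These are matches of letters, not measured binding.

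**Figure D2:**
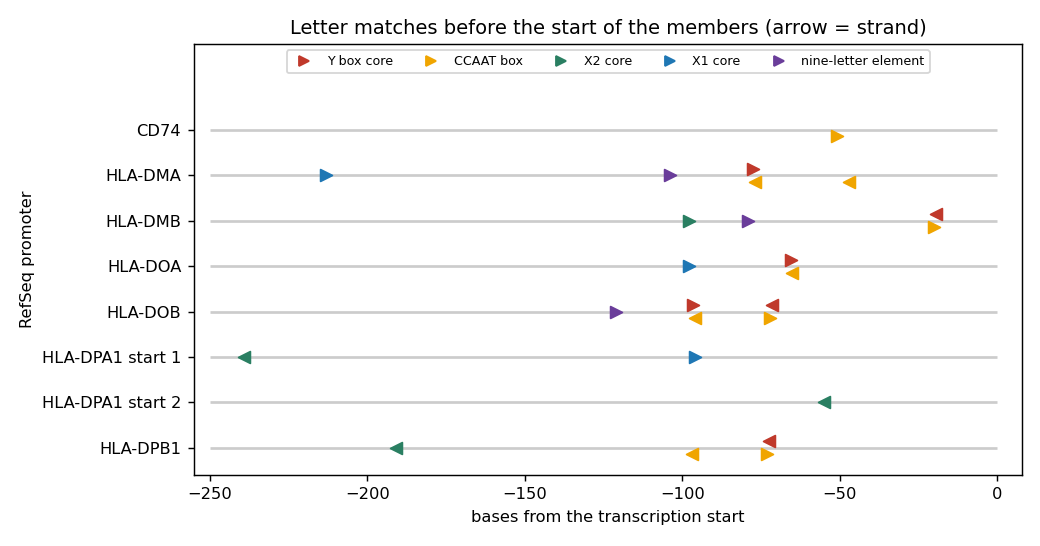
Positions of the letter matches (x axis, bases from the transcription start) in the RefSeq promoter entries of the members (y axis); colours are the elements and the arrowhead gives the strand of the match. HLA-DMA, HLA-DOA and HLA-DOB carry a forward GATTGG between positions -99 and -63, and HLA-DMB and HLA-DPB1 only a reverse one.

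The HLA-DP genes, a classical pair that presents peptides at the surface, were below background on all 5 of their probe sets. HLA-DPA1 read 2.07 on replicate 1 and 2.08 on replicate 2, and its 2 probe sets lay 0.22 apart. HLA-DPB1 averaged 1.59 and 2.26 over 3 probe sets, which did not move together. Probe set 8118594 read 1.24 and 2.56, probe set 8178220 read 0.97 and 2.54, and probe set 8179519 read 2.57 and 1.67. The first pair was thus higher on replicate 2 and the last on replicate 1, all below the threshold.

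HLA-DRA, the common alpha chain partner of the DR beta chains, is seen only through probe sets that also list HLA-DQA1, so their signals cannot be given to either gene. Probe set 8118548 read 4.32 on replicate 1 and 2.32 on replicate 2, above background on the first array only. Probe set 8178193 read 1.80 and 0.56, and probe set 8179481 read 1.95 and 1.83. These 3 probe sets list 8 accessions each, and 1 of them passed on 1 array.

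CD74 was below background as well. Its probe set, shared with ROS1, a receptor kinase gene, read 2.84 and 2.75, just under the thresholds of 2.98 and 2.88 and at percentiles 92.2 and 92.5 of the olfactory receptors. CIITA read 2.46 and 2.58 on its single probe set, at percentiles 77.5 and 89.2 of the olfactory receptors. Both genes lay in the upper part of the background and on neither array above it.

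By mean signal, with CD74 and HLA-DRA placed by probe sets shared with ROS1 and HLA-DQA1, the members ran from HLA-DMA (4.44 ± 0.22) through HLA-DOA (2.89 ± 0.15), the CD74/ROS1 probe set (2.80 ± 0.06), CIITA (2.52 ± 0.08), the HLA-DRA/HLA-DQA1 probe sets (2.13 ± 0.79), HLA-DPA1 (2.07 ± 0.01), HLA-DMB (1.95 ± 0.18) and HLA-DPB1 (1.92 ± 0.47) to HLA-DOB (1.51 ± 0.25). Of the 8 gaps between neighbours in this order, 6 were smaller than 0.39, the SD of the difference between arrays. The exceptions were the gap of 1.55 between HLA-DMA and HLA-DOA and that of 0.41 between HLA-DPB1 and HLA-DOB. That SD is for single arrays, whereas the gaps are between means of 2 arrays, so the yardstick is a wide one. The gap below CIITA, 0.3897, was close to it (0.3938). Differences between the probes of different genes are not part of that SD. The SD near 0 of HLA-DPA1 does not show a smaller error, since its probe sets differed between the arrays by 0.30 and -0.29, which cancelled in the mean. With 2 arrays of 1 group there is no pattern across conditions, so no gene was named for resembling a member.

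For several members the probe sets of the same gene differed widely. The probe sets of HLA-DOA lay 2.21 apart, those of HLA-DMA 1.88, those of HLA-DOB 1.36, and the lowest and highest of HLA-DPB1 0.37. Over the 637 genes with more than 1 probe set of their own the median range was 1.09. The pairs of HLA-DOA, HLA-DMA, HLA-DOB and HLA-DPA1 each list identical accessions, and 248 such pairs on the array had a median gap of 1.09. Of these, 70 had a gap larger than that of HLA-DOA. At the olfactory threshold, the call for HLA-DOA therefore rests on which probe set is read, while that for HLA-DMA does not. Under the stricter 99th-percentile cut-off (3.60 on replicate 1, 3.76 on replicate 2), the HLA-DMA call rests on it too. There, HLA-DMA probe set 8180086 (3.35 and 3.66) fell short on both arrays, while probe set 8125537 (5.86 and 4.91) passed. HLA-DOA probe set 8180093 (3.94 and 4.05) also passed.

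Another 13 probe sets listed only class II genes outside the 9, and 2 of them were above background, beside 55.8% of annotated probe sets. The probe set 8118564, shared by HLA-DQA2 and HLA-DQA1, read 4.98 on replicate 1 and 5.77 on replicate 2 and passed the second threshold on replicate 2. A further pair with the same symbols did not pass: probe set 8178205 read 2.17 and 2.52, and probe set 8179489 read 2.68 and 1.72. HLA-DQA1's own probe set read 2.51 and 2.32, below background. Probe set 8180029, shared by HLA-DQB2 and HLA-DQB1, read 3.40 and 3.04. All DR beta probe sets were below background, including HLA-DRB5 (1.84 and 1.73) and both that list HLA-DRB6, HLA-DRB5, HLA-DRB4, HLA-DRB3, HLA-DRB1 and HLA-DQB1 (2.22 on both arrays, and 2.12 and 1.90).

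The DNA-binding factors of class II promoters were all above background, beside 55.8% of all named genes. RFX5, RFXAP and RFXANK form the RFX complex of the X1 box, whose loss causes inherited class II deficiency. RFX5 read 5.28 on replicate 1 and 5.22 on replicate 2, RFXAP 4.51 and 4.89, and RFXANK 5.07 and 4.33. CREB1, the X2 factor, read 7.01 on both arrays, and the NF-Y subunit NFYC 5.79 and 6.14. These 2 of the 7 factors were also above the second threshold, beside 17.1% of all named genes. The list median was 5.19, against 2.07 for the members. Coactivators that CIITA recruits were also above background, 6 of 6, beside the same 55.8%. They were led by the remodelling ATPase SMARCA4 (6.80 ± 0.10) and the acetyltransferase EP300 (6.71 ± 0.07), with KAT2B lowest (3.62 ± 0.86).

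Factors that switch CIITA on by lineage were above background in 3 of 5 cases, near the 55.8% of all named genes. SPI1, which encodes the myeloid factor PU.1, read 4.90 ± 0.16 and TCF3, an E protein gene of lymphoid development, 5.35 ± 0.46. PAX5, the B cell identity factor, read 3.01 and 2.93, barely above the threshold. IRF8, which acts in monocytes, dendritic and B cells, read 1.65 and 1.59, and IRF4 2.32 and 2.31, both below background.

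Of 8 measured genes between the interferon gamma receptor and CIITA, 6 were above background, beside 55.8% of all named genes. The others were above the threshold on replicate 2 only. The receptor chains IFNGR1 (6.14 and 6.05) and IFNGR2 (5.83 and 5.81) and the kinase JAK1 (7.23 and 7.09) exceeded both thresholds. JAK2, the other kinase of the receptor, read 2.60 and 3.50. IRF1, an interferon-induced activator of the CIITA promoter, read 3.21 and 3.62, above the olfactory threshold only, and the related factor IRF2 5.94 and 6.27.

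Enzymes and factors known to repress CIITA or class II genes were above background in 8 of 10 cases and above the second threshold in 7. The shares over all named genes were 55.8% and 17.1%. The histone deacetylases HDAC2 (8.70 ± 0.37) and HDAC1 (8.31 ± 0.26) were highest. PRDM1, which shuts CIITA off in plasma cells, was lowest and not above background (2.54 ± 0.06). The maintenance DNA methyltransferase DNMT1, named in the design text of the series, read 7.004 and 6.669, but methylation of the class II promoters was not measured on these arrays.

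**Figure D3:**
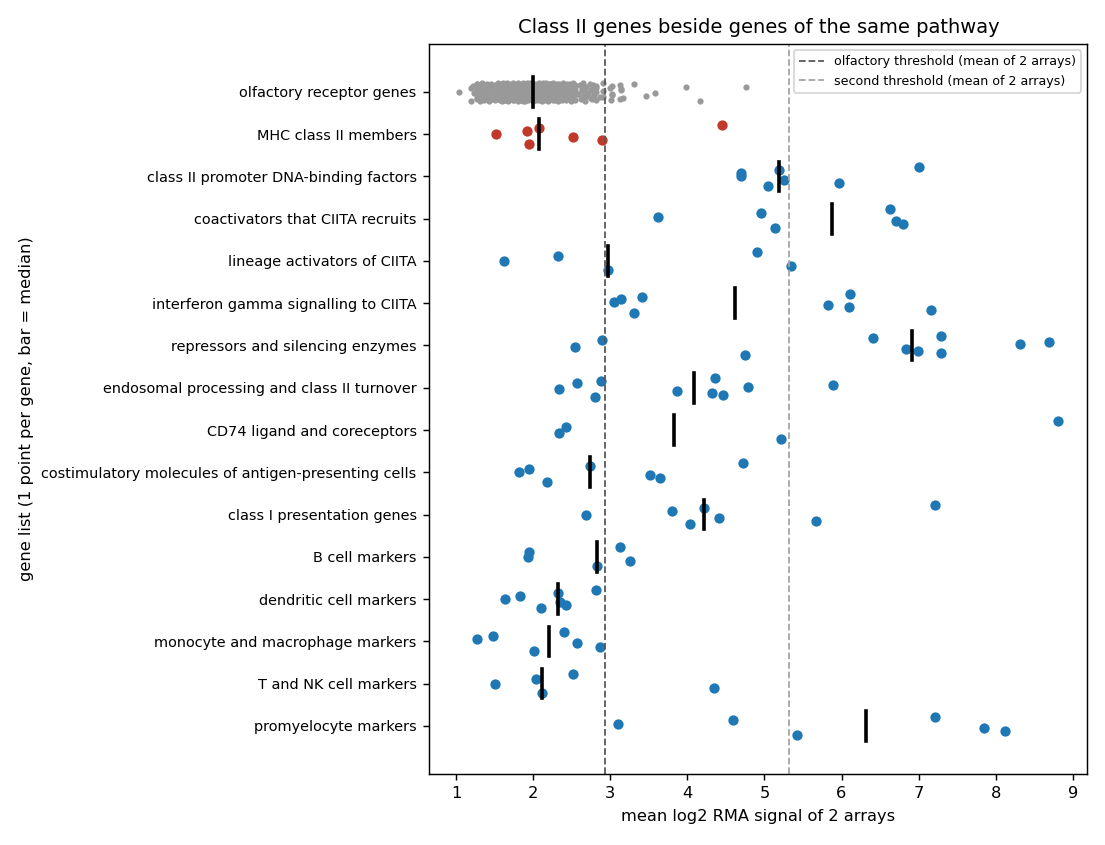
Mean log2 RMA signal over 2 arrays (x axis) of each gene with its own probe set, by list (y axis); black bars are medians, dashed lines the thresholds averaged over the arrays, and grey points the olfactory receptor genes. The members lie with the olfactory receptors except HLA-DMA, while the promoter-binding factors and coactivators all lie right of the olfactory threshold.

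The endosomal steps that prepare peptides and degrade CD74 were above background in 6 of 10 genes, near the 55.8% of all named genes. IFI30, a thiol reductase of the class II pathway and an interferon-inducible gene, read 5.80 and 5.98, above both thresholds. CTSL, a cysteine protease, read 4.42 and 5.15, and CTSS, which trims CD74 in antigen-presenting cells, 3.97 and 4.66. CTSF was lowest (2.34 ± 0.06). CD74 is also a receptor for the cytokine MIF. The probe set shared by MIF and its antisense gene MIF-AS1 read 8.52 and 7.24, and the MIF homologue DDT 8.604 and 9.001, both above the second threshold. Of the CD74 coreceptors, CXCR4 was above background (5.22 ± 0.27), and CD44 (2.48 and 2.37) and CXCR2 (2.25 and 2.43) were not.

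Costimulatory molecules, which antigen-presenting cells show beside class II, were above background in 3 of 7 genes, beside 55.8% of all named genes. With the threshold set at the 99th percentile instead, 1 passed, and the share of all named genes there was not counted. The maturation marker CD83 read 4.72 ± 0.41, ICOSLG 3.64 ± 0.12 and CD86 3.31 and 3.72, while CD274 was lowest (1.81 ± 0.40). Taking the 9 lists of related genes together, class I included, 47 of 64 measured genes (73.4%) were above background and 20 above the second threshold, beside 55.8% and 17.1% of all named genes. These lists were chosen with earlier results of these data known, and they describe where the members stand within their pathway.

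Class I presentation genes were mostly above background on the same arrays. B2M, the light chain of class I, read 7.04 and 7.38, and TAPBP, which loads peptides on class I, 5.86 and 5.49. The probe sets shared by HLA-C and HLA-B read 7.32 and 7.02, and 8.51 and 8.69, while those shared by HLA-F and HLA-B read 1.18 and 1.30, below background, and 3.50 and 3.31. NLRC5, the class I counterpart of CIITA, gave 3.80 on each array, between the thresholds. With a probe set of their own, 6 of 7 class I pathway genes were above background, beside 55.8% of all named genes. The exception, TAP2, read 2.54 and 2.83 as the mean of its 3 probe sets. When genes were read by their brightest probe set instead, 7 of 7 passed, and the share of all named genes was not counted there. Above the second threshold on both arrays were 2 of 7, beside 17.1%.

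Genes of other families in the class II region of chromosome 6 included some well above background. Between BTNL2 and RING1 the RefSeq order holds 9 protein-coding genes that are not class II genes, of which 6 were above background, beside 55.8% of all named genes, with a median of 4.21. Of the 5 that lie between class II genes, 4 were above background, TAP2 being the exception by the mean of its probe sets. The class II genes there with their own probe set numbered 9, of which 1 was above background, with a median of 1.95. BRD2, a bromodomain protein gene that lies between HLA-DMA and HLA-DOA, read 7.560 and 7.505, above both thresholds. TAP1 (3.77 and 4.31), PSMB8 (4.11 and 4.31) and PSMB9 (4.65 and 4.18), interferon-inducible class I genes between HLA-DOB and HLA-DMB, were above the olfactory threshold only.

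**Figure D4:**
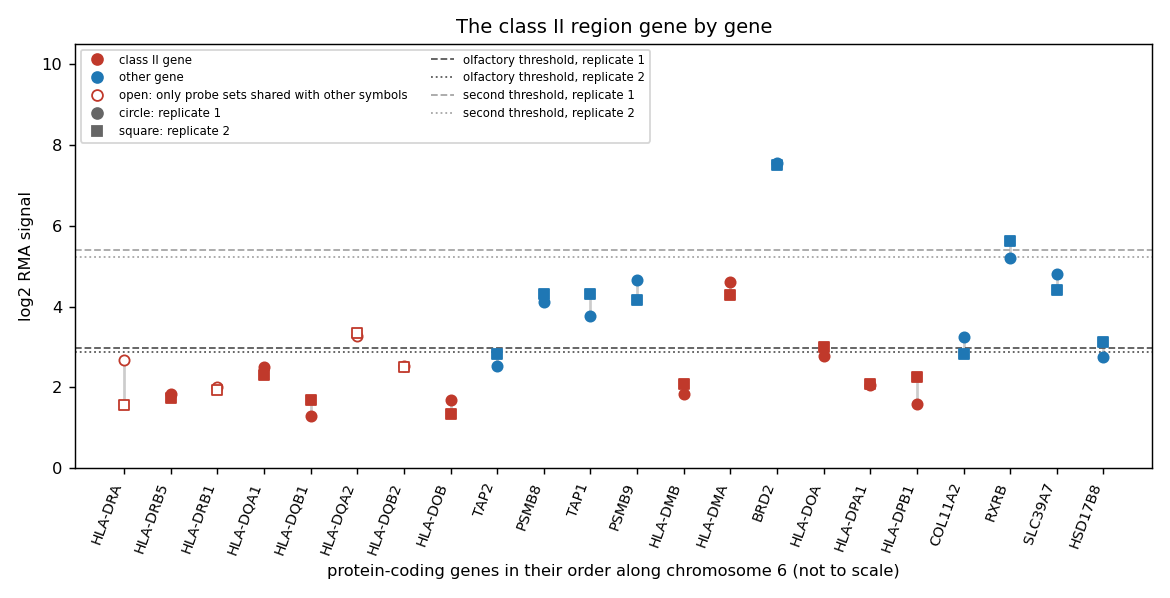
Log2 RMA signal (y axis) of each protein-coding gene between BTNL2 and RING1 in chromosomal order (x axis, not to scale); circles are replicate 1, squares replicate 2, red class II genes, blue other genes, and open symbols genes seen only through shared probe sets. BRD2 stands at 7.5 between HLA-DMA and HLA-DOA, and class II genes other than HLA-DMA and the shared HLA-DQA2 lie near or below the olfactory lines.

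The neighbours of CIITA and of CD74 were above background in 3 of 4 cases each, beside 55.8% of all named genes. Beside CIITA (2.46 and 2.58), TVP23A read 2.28 and 2.20, below background, and on the other side DEXI read 4.21 on both arrays. NUBP1 (5.59 ± 0.42) and CLEC16A (4.97 ± 0.05) lay one gene further out. CD74 lies between TCOF1, a nucleolar factor gene, which read 5.56 and 5.33, and the ribosomal protein gene RPS14, which read 9.18 and 9.14. NDST1 read 4.92 ± 0.45 and ARSI, below background, 2.48 ± 0.21. The probe sets of CIITA and of CD74/ROS1 were below background, and 6 of 8 neighbours were above it. Whether this share differs from that over all named genes was not tested.

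Between the arrays, 4 of 17 member probe sets differed by over 1 (log2), beside 2.68% of annotated probe sets. The HLA-DRA/HLA-DQA1 probe sets were lower on replicate 2, 8118548 with a difference of -2.004 and 8178193 with one of -1.25, beside 1.28% of annotated probe sets lower by over 1. Those of HLA-DPB1 were higher on replicate 2, by 1.32 on probe set 8118594 and 1.57 on probe set 8178220, beside 1.39% higher by over 1, and both stayed below background. A difference as large as that of the first HLA-DRA/HLA-DQA1 probe set was seen in 50 of 20546 annotated probe sets. At gene level 0 of the 7 members with their own probe set differed by more than 1, beside 1.96% of named genes. Of the 7, 5 were higher on replicate 2 and 2 on replicate 1, beside 7755 and 9687 of the 18404 named genes.

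Probe sets of the same gene went the same way in some members and opposite ways in others. The 3 HLA-DRA/HLA-DQA1 probe sets were all lower on replicate 2, the third by -0.12, as were both of HLA-DOB (-0.60 and -0.10), and both of HLA-DOA were higher (0.32 and 0.11). The HLA-DMA probe sets differed by -0.95 and 0.32, those of HLA-DPA1 by 0.30 and -0.29, and the third HLA-DPB1 probe set by -0.90. Over the whole array, of 235 pairs with identical accessions and unequal values on both, 130 differed in the same direction and 105 in opposite directions. Markers of antigen-presenting cells were mostly not above background, and the summed linear signal on replicates 1 and 2 was 31.7 and 34.9 for 5 B cell markers, 33.3 and 33.9 for 7 dendritic cell markers and 28.0 and 27.6 for 6 monocyte and macrophage markers. Of these, 2 of 5, 0 of 7 and 0 of 6 were above background, beside 55.8% of all named genes. The B cell genes that passed were CD79B (3.33 and 3.19) and CD79A (3.02 and 3.24), neither of which passed with the threshold set at the 99th percentile, while MS4A1, which encodes CD20, read 1.85 and 2.00. Of the dendritic cell list, XCR1 (2.72 and 2.91, above the threshold on replicate 2 only) and CLEC10A (2.43 ± 0.29) were highest and CLEC9A (1.64 ± 0.12) lowest. Of the monocyte list, FCN1 (2.86 ± 0.06) and the growth factor receptor gene CSF1R (2.56 ± 0.26) were highest and MSR1 (1.27 ± 0.10) lowest. Of 5 T and NK cell markers 1 passed, the granule gene NKG7 (4.43 and 4.25), with CD3D next (2.52 ± 0.46) and KLRD1 lowest (1.51 ± 0.21). The promyelocyte markers summed to 1146 and 483, with CTSG and MPO among the 4 of 6 lower on replicate 2 and ELANE (4.47 and 4.71) and AZU1 higher, and the part of this shift in the HLA-DRA/HLA-DQA1 difference was not tested.

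**Figure D5:**
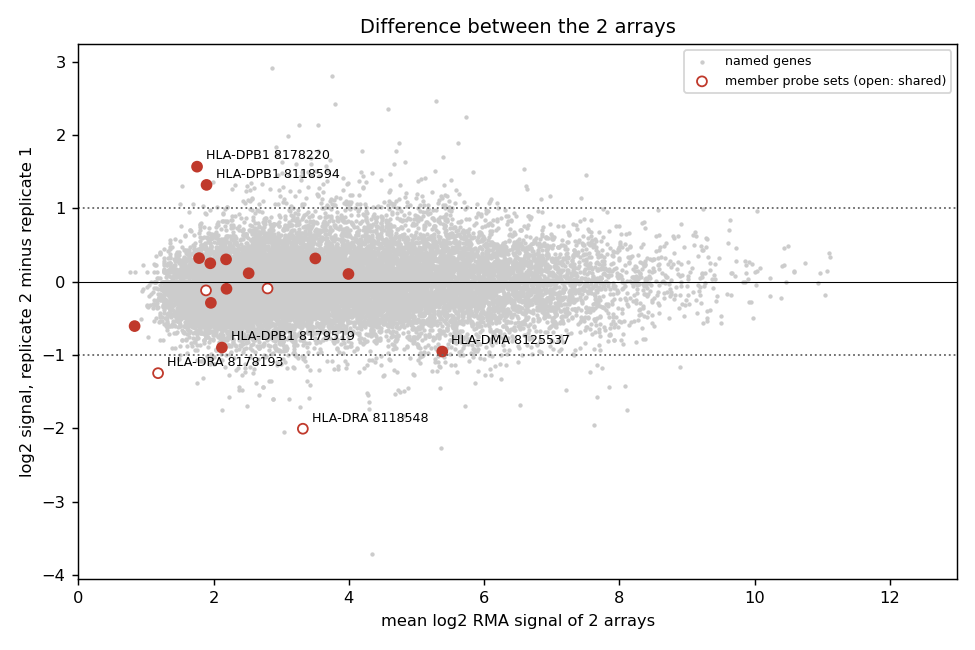
Difference between the arrays (y axis, log2 signal of replicate 2 minus replicate 1) against the mean log2 signal (x axis); grey points are named genes, red points member probe sets, open where shared with another symbol, and dotted lines mark a difference of 1. HLA-DRA/HLA-DQA1 probe sets, labelled HLA-DRA in the plot, lie at -2.004 and -1.25. A pair of HLA-DPB1 probe sets lies at 1.32 and 1.57, with the third HLA-DPB1 probe set on the other side of 0.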

How the data were processed

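Total RNA (200 ng per sample) of HL-60 cells was amplified, biotin-labelled and hybridised to Human Gene 1.0 ST arrays, per the labels. The authors summarised each probe set with RMA, per the submitters' processing notes, and deposited the log2 signals; the software and the build were not given in the sources used here. No source names the log base, and base 2 is that of RMA. RMA evens out the arrays' distributions, so a global change cannot be seen. Of 32321 probe sets, 19158 list 1 symbol, 1388 several and 11775 are not listed; 19128 of the 19158 Entrez IDs were found in RefSeq (GRCh38.p14), which updated the symbols. Genes took the mean of their single-symbol probe sets, and probe sets with several symbols are given by all of them. The table of protein sequences planned for identities was not used here. Named besides the members were the 2 highest and the lowest gene of each list and a fixed set. Some genes fell outside this rule and were named after their values were seen: IRF4, PAX5, CD44, DNMT1, ELANE and the probe sets shared by HLA-B with HLA-C or HLA-F. The members and lists were chosen with earlier results of these data known. Alternatives were quantile and loess normalization (span 0.3), the highest probe set, each array alone, other thresholds and shared probe sets. Calls and normalizations were tested on simulated data. Python 3.11.15, numpy 2.4.6, pandas 2.3.3 and statsmodels 0.14.6 were used.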

Additional observations from a re-analysis of the deposited data

How the results depend on the processing

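No paired analysis was possible because WT is the only group. The members above background numbered 1 of 7, and 1 also after quantile normalization, after loess, at the 99th percentile of olfactory receptor genes and with shared probe sets included; they were 2 with the highest probe set per gene (HLA-DOA joining HLA-DMA), 3 probe sets (of the same 2 genes) with each probe set counted by itself, 1 to 2 with either array left out, HLA-DOA joining without replicate 1, and 0 with the second background set as threshold. That set also lowered the genes of the related lists from 47 to 20, the chromosome neighbours from 12 to 4 and the class II probe sets from 5 to 0, because its threshold is higher; the 99th percentile left 3 class II probe sets. With either array left out, the members' median was 2.07 to 2.26, the related genes numbered 47 to 51, the neighbours 13 on each, and the class II probe sets 5 to 6. The count of GATTGG promoters was 5 with the whole 300-base entry too. Background correction, which needs scanner files, was not run.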
